A study of Danio rerio with 4 samples.

Results

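Brain RNA of zebrafish (Danio rerio) exposed to butylparaben at 0.1 mg/L was set against brain RNA of fish kept in the vehicle, 0.1% dimethyl sulfoxide. Butylparaben is an ester used as a preservative in cosmetics and food. The comparison covers every gene with a mean of at least 1 CPM (a count scaled to its library's total) over the 4 libraries of the series, which was 16522 of the 32520 genes in the table. That mean includes both libraries compared, so a gene can pass the filter through a high level in either of them. The study, whose title concerns adult zebrafish, chronic exposure, photosensitivity and memory, holds 1 library per group: the vehicle control and butylparaben at 0.01, 0.1 and 1.0 mg/L. All 4 are labelled as wild type and as brain. The treatment label names dimethyl sulfoxide for the control only. The sources used here do not say whether a library pools several brains, how long the fish were exposed, what sex they were or when in the day they were sampled.

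With 1 library a side there is no replicate, no test between conditions and no p-value. Exact 95% intervals are given for the main ratios; they cover counting error only and leave out variation between fish. The log2 ratio is log2 of (CPM + 0.5) at 0.1 mg/L over (CPM + 0.5) in the control, and genes with a size of at least 1 and an interval that excluded 1 were called. Among the genes measured the interval removed none of that size, so the size rule alone set the calls. That scale understates the ratio of low genes, whereas folds and interval bounds are ratios of scaled CPM without the addition. In whole brain tissue, fewer cells of a type and less RNA per cell cannot be told apart. The 3 doses share the control library, so values at 0.01 and 1.0 mg/L are set beside those at 0.1 mg/L and are no independent repeat.

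Several systems known in the vertebrate brain frame the results. Interferons bind receptors that act through Janus kinases and STAT transcription factors, and the induced genes code for antiviral proteins and for inhibitors that end the signal; in brain, microglia, endothelium, glia and neurons can all respond. The aryl hydrocarbon receptor is a transcription factor that binds planar aromatic compounds and induces cytochrome P450 genes. GABA and glutamate are the main inhibitory and excitatory transmitters, and calcium-dependent kinases, neurotrophin receptors and immediate early genes take part in plasticity and memory.

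The 0.1 mg/L library held 9907714 counts and the control 11099317, with 10140963 and 9750590 counts at 0.01 and 1.0 mg/L. Mitochondrially encoded genes took 26.3% of all counts at 0.1 mg/L against 29.3% in the control. Markers of brain cells were abundant in both libraries: 35 measured pan-neuronal genes summed to 17906 CPM at 0.1 mg/L and 16368 CPM in the control, with median log2 ratio 0.05. Those of oligodendrocytes summed to 15014 CPM at 0.1 mg/L and 12056 CPM in the control. The control library stood apart in genes of the egg: the 23 egg coat genes in the table summed to 181 counts at 0.1 mg/L and 7420 counts in the control, with 146 and 139 at 0.01 and 1.0 mg/L. These genes are best known from the ovary, and their share of the lower calls is given beside the counts below.

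At 0.1 mg/L, 401 genes were called higher and 487 lower, or 2.43% and 2.95% of the genes measured. Most genes lay close to the control: 83.0% were within 1.5-fold, and the median log2 ratio was 0.00. The lower side reached further, with 151 called genes past 4-fold and 107 past 8-fold, while the higher side had 51 and 10. Of the genes called lower, 60 had no count at 0.1 mg/L, and of those called higher, 7 had no count in the control. Rescaled without the egg coat and oocyte lists, 400 genes were higher and 456 lower. Members of these lists made up 30 of the 151 genes past 4-fold lower, 24 of the 107 past 8-fold and 7 of the 60 with no count. These are counts of listed genes only, and whether any of the rest come from the egg was not tested. Calls were concentrated among low genes. Of genes with a mean of 1 to 2 CPM, 6.19% were higher and 8.16% lower, whereas of the 1512 genes with at least 100 CPM, 5 were higher and 3 lower.

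**Figure D1:**
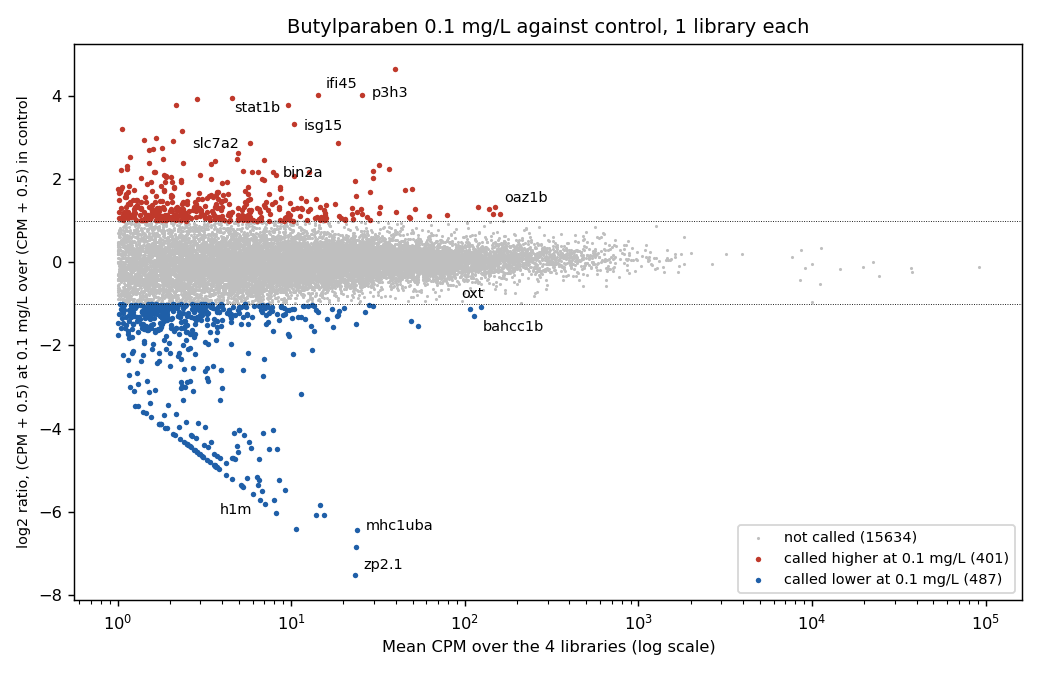
Log2 ratio of 0.1 mg/L over control (vertical axis) against mean CPM over the 4 libraries (horizontal log axis) for 16522 genes, with the 401 called higher in red, the 487 called lower in blue and the rest in grey. Dotted lines mark a log2 ratio of 1 in size; the lower side extends to -7.52 (zp2.1) and the blue diagonal edge holds genes counted almost only in the control library.

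The place of each library among the 4 shows where the contrast lies. For 272 of the 401 genes called higher (67.8%), the 0.1 mg/L library was the highest of all 4, and for 334 (83.3%) the control was the lowest. For 312 of the 487 genes called lower (64.1%), the 0.1 mg/L library was the lowest, and for 396 (81.3%) the control was the highest. Of these, 12 and 32 were on the egg coat or oocyte lists. Over all genes measured, the 0.1 mg/L library was highest for 25.5% and lowest for 23.5%. Since a call needs a gap between these 2 libraries, the shares describe the calls and are no evidence for them.

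Interferon signalling and interferon-stimulated genes had the highest list median. Of 65 listed genes 43 were measured, and 18 of them were called higher and 0 lower, or 41.9% against 2.43% of all genes called higher. Members such as dhx58, with 4.86 CPM at 0.1 mg/L and under 1 CPM in each other library, passed the filter only through 0.1 mg/L. The share therefore describes the list and is no evidence for it. At a mean of at least 5 CPM 9 members were called higher. Their median log2 ratio was 0.59 at 0.1 mg/L, beside 0.00 over all genes, and 38 of 43 lay above the control. Over the same genes the libraries at 0.01 and 1.0 mg/L had medians of 0.14 and 0.36. The 0.1 mg/L library was the highest of the 4 for 29 of the 43, and for 17 of the 18 called.

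The transcription factors of the pathway were among the highest. The signal transducer gene stat1b (ENSDARG00000076182, GRCz11 chromosome 9, 41218967 to 41247197) had 277 counts at 0.1 mg/L against 17 in the control (18.1-fold, interval 11.13 to 31.6), with 44 counts in each of the other exposed libraries. Its partner stat2, named like the next genes after their values were seen, had 317 counts at 0.1 mg/L against 166 in the control, or 2.13-fold (interval 1.76 to 2.58). The interferon regulatory factor gene irf7, an inducer of interferon transcription, had 42 counts at 0.1 mg/L against 6 in the control, with 5 and 13 at 0.01 and 1.0 mg/L. The most irf7 counts thus stood in the 0.1 mg/L library. The related irf1b had 218 counts at 0.1 mg/L against 80 in the control (3.03-fold, interval 2.34 to 3.97), with 89 and 175 at 0.01 and 1.0 mg/L. The third component of the STAT complex, irf9, was under the size rule at a log2 ratio of 0.74, and the paralog stat1a stood at 0.23.

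The effector genes called also had their highest values at 0.1 mg/L, with 1 exception, which the call itself favours. The ubiquitin-like gene isg15 (ENSDARG00000086374, chromosome 5, 20112032 to 20113284) had 316 counts at 0.1 mg/L against 30 in the control (11.7-fold, interval 8.05 to 17.7), with 32 and 38 at 0.01 and 1.0 mg/L. The gene ifi45 (ENSDARG00000017489, chromosome 13, 37605896 to 37608441) had 412 counts at 0.1 mg/L against 23 in the control, or 19.9-fold (interval 13.1 to 31.8), with 62 and 73 counts at 0.01 and 1.0 mg/L. For isg15 the other doses were within a few counts of the control, whereas for ifi45 they lay between the control and 0.1 mg/L. On the deposited TPM scale, which is per length, ifi45 reached 117 TPM at 0.1 mg/L, isg15 39.4 TPM and stat1b 16.6 TPM, against 5.86, 3.27 and 0.57 TPM in the control.

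Further effectors, named after their values were seen, had fewer counts and wider intervals. The antiviral radical enzyme gene rsad2 had 84 counts at 0.1 mg/L against 25 in the control (3.74-fold, interval 2.37 to 6.10). The dynamin-like GTPase gene mxb had 41 counts at 0.1 mg/L against 1 in the control, or 45.7-fold (interval 7.75 to 1846), and its paralog mxc had 68 at 0.1 mg/L against 24 in the control. The mxc gene was the exception, with 134 counts at 1.0 mg/L. The guanylate-binding protein genes gbp2 and gbp1 were 2.98-fold and 2.25-fold higher at 0.1 mg/L, and the large ubiquitin ligase gene rnf213a had 496 counts at 0.1 mg/L against 214 in the control (2.58-fold, interval 2.19 to 3.04). The zebrafish kinase gene pkz, whose protein binds Z-form nucleic acid, had 19 counts at 0.1 mg/L against 5 in the control, and the ADP-ribosyltransferase family gene parp9 had 22 at 0.1 mg/L against 8 in the control.

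Sensors and inhibitors were called as well. The RNA sensor gene dhx58 had 49 counts at 0.1 mg/L against 2 in the control (27.3-fold, interval 7.16 to 232), with 7 and 8 counts at the other doses. The adaptor gene sting1 of the cytosolic DNA pathway, named after its values were seen, had 19 counts at 0.1 mg/L against 7 in the control. Of the inhibitors, socs1a, which blocks Janus kinases, had 157 counts at 0.1 mg/L against 47 in the control (3.72-fold, interval 2.67 to 5.27), and usp18, which removes ISG15 from proteins and was named after its values were seen, had 27 at 0.1 mg/L against 11 in the control. Other signalling genes, also named after their values were seen, were near the control: the log2 ratio was 0.24 for the kinase genes jak1 and tbk1 and 0.19 for the adaptor gene mavs. Receptor genes lay below it, with log2 ratios of -0.28 for crfb1, -0.40 for crfb2, -0.41 for ifngr2 and -0.65 for ifngr1l, none called.

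The 22 listed genes under the level filter together had 113 counts at 0.1 mg/L against 48 in the control, with 53 and 70 at 0.01 and 1.0 mg/L. Ligand genes were at the limit of detection: ifnphi1 had 5 counts in each exposed library and 0 in the control, and ifng1 had 3 at 0.1 mg/L and 1 in the control. Named after their values were seen, the most counted were mxa, with 28 counts at 0.1 mg/L against 5 in the control, cmpk2, with 11 at 0.1 mg/L against 0 in the control, and ifit11, with 11 at 0.1 mg/L against 9 in the control.

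**Figure D2:**
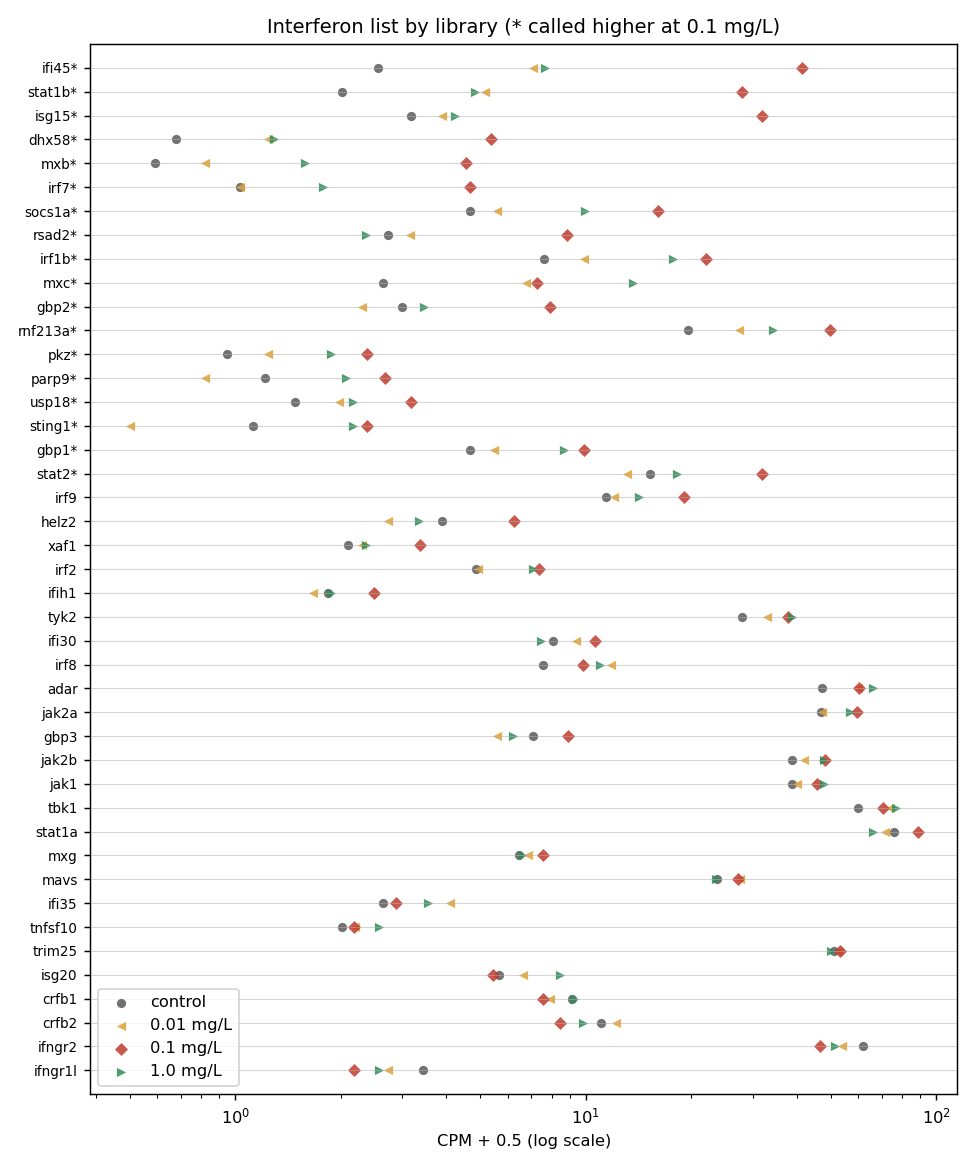
The 43 measured interferon genes (rows, ordered by log2 ratio) with CPM + 0.5 on a horizontal log axis in each library, for the control (circle), 0.01 mg/L (left triangle), 0.1 mg/L (diamond) and 1.0 mg/L (right triangle); asterisks mark the 18 called higher at 0.1 mg/L. The diamond is the rightmost symbol in 29 of 43 rows.

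Other immune genes were mixed. Of 31 measured genes of antigen presentation, 2 were higher and 1 lower (6.45% and 3.23%, against 2.43% and 2.95% of all genes). The higher ones were the immunoproteasome gene psmb10, with 193 counts at 0.1 mg/L against 100 in the control (2.15-fold), and the proteasome activator gene psme1, with 194 at 0.1 mg/L against 101 in the control (2.14-fold). Both stood at almost the same counts at 1.0 mg/L, with 191 and 189. The lower one, the class I gene mhc1uba, had 0 counts at 0.1 mg/L against 478 in the control (ratio interval 0 to 0.00863). It had 1 and 508 counts at 0.01 and 1.0 mg/L, so its 4 libraries fell into a high and a low pair that did not follow dose. Close copies of such genes share reads, so values between paralogs are uncertain.

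Of 20 measured complement and acute phase genes, 2 were higher and 2 lower, with a median of 0.34. These shares were above the 2.43% and 2.95% of all genes. Among the settings tried, the median ranged from 0.04 to 0.43, higher calls from 1 to 2 and lower calls from 0 to 2. Complement c4b had 80 counts at 0.1 mg/L, as at 1.0 mg/L, and 15 in the control (5.94-fold), and 1 of a pair of terminal component genes named c6 had 21 at 0.1 mg/L against 6 in the control, while the other had 254 at 0.1 mg/L against 181 in the control and was not called. The pentraxin gene crp2 had 2 counts at 0.1 mg/L against 200 in the control (ratio 0.0111, interval 0.00134 to 0.04075). It had 0 and 3 counts at 0.01 and 1.0 mg/L, so the control stood apart. The complement gene c3b.2 had 4 at 0.1 mg/L against 15 in the control, with 20 and 94 at 0.01 and 1.0 mg/L. Of 36 genes on the cytokine and receptor list 2 were higher and 3 lower (5.56% and 8.33%, against 2.43% and 2.95% of all genes). The chemokine gene cxcl12b had 282 counts at 0.1 mg/L against 917 in the control (ratio 0.342, interval 0.299 to 0.392), with 570 and 469 at 0.01 and 1.0 mg/L. The 0.1 mg/L library was the lowest of the 4 for cxcl12b, which guides migrating cells. Also lower were the receptor gene il2rgb, with 3 counts at 0.1 mg/L against 26 in the control (ratio interval 0.0249 to 0.419), and tgfb1a, named after its values were seen, with 13 at 0.1 mg/L against 36 in the control. Higher were the chemokine gene cxcl18b (33 counts at 0.1 mg/L against 14 in the control) and mmp13b (152 at 0.1 mg/L against 54 in the control). The list holds mmp13b, though it is a matrix protease gene and codes for no cytokine or receptor.

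Markers of immune cells had smaller medians than the interferon list, with 0.09 for lymphocytes and 0.29 for neutrophils. The 44 measured genes of microglia and macrophages had a median of 0.27, with 35 above the control. Of them, 1 was called higher and 1 lower (2.27% each, near the 2.43% and 2.95% of all genes). They summed to 1491 CPM at 0.1 mg/L and 1260 CPM in the control, with 1392 and 1326 at 0.01 and 1.0 mg/L. The cathepsin genes split, with ctss1 at 56 counts at 0.1 mg/L against 24 in the control and ctss2.1 at 12 at 0.1 mg/L against 102 in the control. Of lymphocyte markers 7 of 34 and of neutrophil markers 9 of 17 were measured, with 0 called in either list and sums of 143 and 210 CPM at 0.1 mg/L against 147 and 157 CPM in the control. The part of such cells in the interferon values was not tested.

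Genes of the aryl hydrocarbon receptor and of phase I metabolism gave 6 higher and 2 lower of 41 measured (14.6% and 4.88%, against 2.43% and 2.95% of all genes), with a median of 0.23. At a mean of at least 5 CPM 2 were higher and 0 lower, without a level filter 5 were lower, and the median was as low as 0.06 among the settings tried. Their summed level was on the other side, at 1851 CPM at 0.1 mg/L and 2029 CPM in the control. The 0.1 mg/L library was the highest of the 4 for all 6 called higher. The receptor's repressor gene ahrra, itself a target, had 43 counts at 0.1 mg/L against 8 in the control (5.98-fold, interval 2.78 to 14.7), and the forkhead gene foxq1a, known in zebrafish as induced by dioxin, had 30 at 0.1 mg/L against 4 in the control. Among cytochrome P450 genes, cyp1a, named after its values were seen, had 400 counts at 0.1 mg/L against 189 in the control (2.36-fold, interval 1.98 to 2.82), with 133 and 249 at 0.01 and 1.0 mg/L. The 0.01 mg/L library was thus below the control for cyp1a. The related cyp1d1 had 85 counts at 0.1 mg/L against 31 in the control (3.05-fold). The remaining calls, named after their values were seen, were cyp2k19 with 20 counts at 0.1 mg/L against 7 in the control, cyp2k18 with 31 at 0.1 mg/L against 14 in the control, and cyp2v1, lower, with 22 at 0.1 mg/L against 58 in the control. The quinone reductase gene nqo1, a target of both this receptor and Nrf2, had 20 counts at 0.1 mg/L against 75 in the control (ratio 0.297, interval 0.172 to 0.492). It was the only one of 41 measured Nrf2 and oxidative stress genes called (2.44%, near the 2.95% of all genes called lower).

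Parabens are weak oestrogen receptor ligands. The sex steroid list had 2 higher and 1 lower of 35 measured (5.71% and 2.86%, against 2.43% and 2.95% of all genes). Its median was -0.05, with 17 above and 18 below the control, and it summed to 1252 CPM at 0.1 mg/L and 1305 CPM in the control. Higher calls ranged from 1 to 4 among the settings tried. The part of oestrogen signalling in these values was not tested. The higher ones code for vitellogenins, egg yolk precursors made in liver under oestrogen: vtg1 had 64 counts at 0.1 mg/L against 3 in the control (23.8-fold, interval 7.77 to 118), with 27 and 0 at 0.01 and 1.0 mg/L, and vtg3 had 73 at 0.1 mg/L against 31 in the control. The steroid dehydrogenase gene hsd17b8 was lower, with 42 counts at 0.1 mg/L against 102 in the control. It had 39 and 107 counts at 0.01 and 1.0 mg/L, so its 1.0 mg/L library lay near the control. For conjugation enzymes 1 of 51 was higher (1.96%, near the 2.43% of all genes) and none was lower. The higher one was the glutathione transferase gene gstm.3 with 55 counts at 0.1 mg/L against 23 in the control.

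Genes of GABA signalling lay mostly below the control. Of 34 measured, 30 lay below the control, 5 were called lower (14.7%, against 2.95% of all genes) and 0 higher, and the median log2 ratio was -0.45. The lower calls numbered 2 at a mean of at least 5 CPM and 1 with a pseudocount of 2 CPM. The libraries at 0.01 and 1.0 mg/L had medians of -0.32 and -0.47. The GABA transporter gene slc6a1a had 193 counts at 0.1 mg/L against 501 in the control (ratio 0.429, interval 0.361 to 0.507), with 233 and 179 at 0.01 and 1.0 mg/L. The control was the highest of the 4 libraries for all 5 called genes, and 0.1 mg/L the lowest for 2 of them. The synthesis gene gad1a, named after its values were seen, had 23 counts at 0.1 mg/L against 58 in the control. Of receptor subunits, gabrr2a had 8 at 0.1 mg/L against 30 in the control and gabrz 38 at 0.1 mg/L against 96 in the control. The gene nlgn2b, related to a mammalian adhesion protein of inhibitory synapses, had 67 at 0.1 mg/L against 170 in the control (ratio 0.439, interval 0.326 to 0.585).

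Memory and plasticity genes lay below the control in 58 of 70 measured, with 5 called lower (7.14%, against 2.95% of all genes), 0 higher and a median of -0.20. At a mean of at least 5 CPM none was called, with a pseudocount of 2 CPM 1 was lower, and on the deposited TPM 3 were. The libraries at 0.01 and 1.0 mg/L had medians of -0.03 and -0.19. The 0.1 mg/L library was the lowest of the 4 for 33 of the 70 and for all 5 called. The Ras exchange factor gene rasgrf2b had 13 counts at 0.1 mg/L against 56 in the control (ratio 0.259, interval 0.130 to 0.479), with 25 and 19 at 0.01 and 1.0 mg/L. The reelin adaptor gene dab1b had 8 counts at 0.1 mg/L against 36 in the control, with 31 and 26 at the other doses. For dab1b the control and the other doses lay close together and 0.1 mg/L apart from them. The 0.1 mg/L library was likewise the lowest for cpeb3, a regulator of translation at synapses, with 4 counts at 0.1 mg/L against 20 in the control, and 24 and 19 at the other doses, and for the calcium-stimulated adenylyl cyclase gene adcy1a, with 5 at 0.1 mg/L against 19 in the control, and 36 and 17. These 2 genes rest on few counts. The neurotrophin receptor gene ntrk2b, named with the next after their values were seen, had 15 counts at 0.1 mg/L against 40 in the control. The kinase gene camk2a, central to synaptic potentiation, missed the size rule with 293 counts at 0.1 mg/L against 622 in the control (log2 ratio -0.92), and had 690 and 327 at 0.01 and 1.0 mg/L.

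Glutamate receptor and transporter genes had a median of -0.19, with 40 of 54 below the control. Called lower was 1 (1.85%, against 2.95% of all genes), the transporter gene slc1a6 with 8 counts at 0.1 mg/L against 30 in the control. The AMPA receptor gene gria1a, at 531 counts at 0.1 mg/L against 1045 in the control, had a log2 ratio of -0.82. Of 57 measured genes of vesicle release 2 were lower (3.51%, near the 2.95% of all genes) and 0 higher, and none was called at a mean of at least 5 CPM or with a pseudocount of 2 CPM: the complexin gene cplx3b with 10 counts at 0.1 mg/L against 42 in the control and the priming factor gene unc13ba with 22 at 0.1 mg/L against 70 in the control. Their median was -0.07, though their sum was higher, at 17487 CPM at 0.1 mg/L and 16568 CPM in the control, and that of pan-neuronal markers 0.05, with 0 of 35 called.

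Potassium channel genes gave 6 lower and 1 higher of 60 measured, with 48 below the control and a median of -0.23. The lower share was above the 2.95% of all genes, and the higher share was below the 2.43% of all genes. Among the settings tried, lower calls ranged from 1 to 8 and higher calls from 0 to 3. The gene kcnq2b, of the channel family behind the M current, had 17 counts at 0.1 mg/L against 58 in the control (ratio 0.326, interval 0.178 to 0.568), and the modulatory subunit gene kcnf1b had 64 at 0.1 mg/L against 165 in the control. The exception was kcnk5a, a leak channel gene, with 65 counts at 0.1 mg/L against 6 in the control (12.1-fold, interval 5.25 to 34.1). It had 1 and 0 counts at 0.01 and 1.0 mg/L, so the 0.1 mg/L library alone held it above a few counts. Among 46 sodium and calcium channel genes, cacna2d4b was the only one called (2.17%, near the 2.43% of all genes called higher). It had 531 counts at 0.1 mg/L against 281 in the control.

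**Figure D3:**
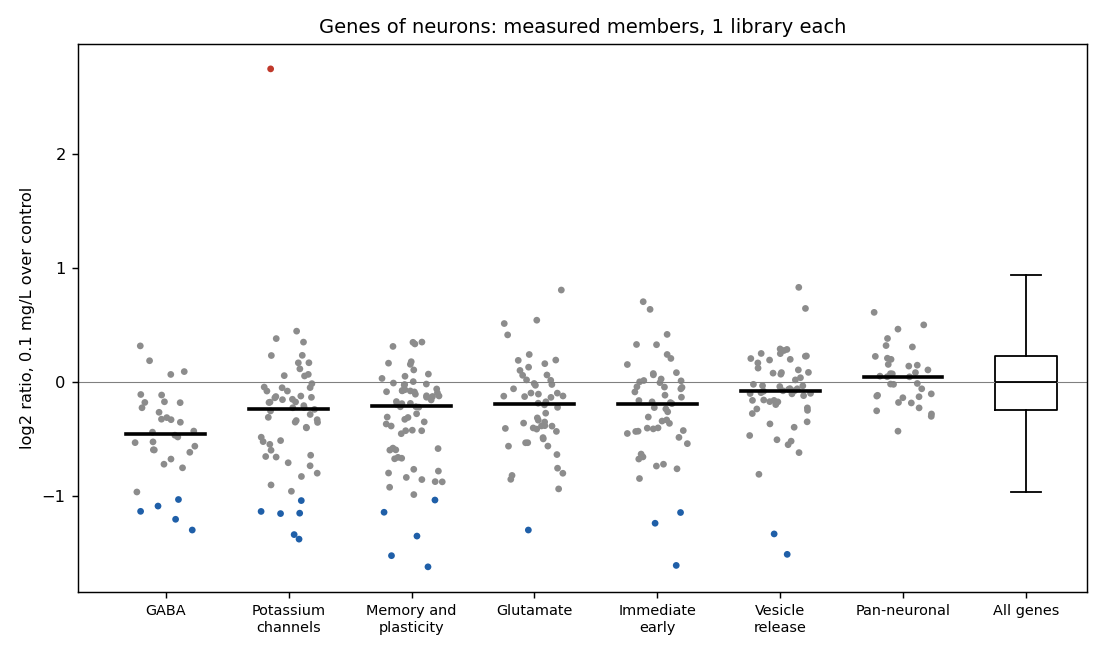
Log2 ratio of 0.1 mg/L over control (vertical axis) for the measured members of 7 neuronal lists (points, with called lower in blue, called higher in red, bars at the median) and a box with quartiles and whiskers at 1.5 box lengths for all 16522 genes. The GABA list sits lowest, with median -0.45, and the red point is kcnk5a at 2.75.

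Immediate early genes, which follow neuronal activity, were all measured, with 38 of 53 below the control and a median of -0.19. Of them, 3 were called lower (5.66%, against 2.95% of all genes) and 0 higher. The control was the highest of the 4 libraries for 28 of the 53. The zinc finger genes egr2a and egr3 had 49 and 95 counts at 0.1 mg/L against 136 and 240 in the control (ratios 0.401 and 0.441), and fosb had 4 at 0.1 mg/L against 25 in the control. The abundant npas4a, an activity-dependent factor, had 2023 counts at 0.1 mg/L against 3749 in the control (log2 ratio -0.73, not called), with 1788 and 2857 at 0.01 and 1.0 mg/L.

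Heat shock and J-domain genes gave 6 lower (7.69%, against 2.95% of all genes) and 0 higher of 78, with a median of -0.11. The inducible chaperone genes hsp70.3, hsp70.2 and hsp70l had 24, 30 and 61 counts at 0.1 mg/L against 77, 88 and 167 in the control. These near-identical paralogs can share reads. The control was the highest of the 4 libraries for 5 of the 6 heat shock genes called. Of 49 clock genes 1 was higher and 2 lower, with a median of -0.08. These shares, 2.04% and 4.08%, were near the 2.43% and 2.95% of all genes. The nuclear receptor gene nr1d4b had 169 counts at 0.1 mg/L against 73 in the control (2.58-fold, interval 1.95 to 3.44) and its paralog nr1d4a 122 at 0.1 mg/L against 72 in the control, under the rule. Lower were the output factor gene tefb, with 176 counts at 0.1 mg/L against 412 in the control (ratio 0.476, interval 0.396 to 0.569), and the retinoid-related receptor gene rorb, with 6 at 0.1 mg/L against 27 in the control. For tefb the other doses, at 310 and 315 counts, lay between 0.1 mg/L and the control.

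Peptide hormone genes gave 5 lower and 1 higher of 56 (8.93% and 1.79%, against 2.95% and 2.43% of all genes), with a median of -0.13. The feeding peptide gene agrp had 36 counts at 0.1 mg/L against 145 in the control (ratio 0.276, interval 0.186 to 0.401), with 81 and 131 at 0.01 and 1.0 mg/L, so 0.1 mg/L was the lowest of the 4. The gene pyyb of the peptide YY family had 10 counts at 0.1 mg/L against 48 in the control, the reproductive peptide gene kiss1 36 at 0.1 mg/L against 100 in the control, and the prohormone convertase gene pcsk1, named after its values were seen, 65 at 0.1 mg/L against 168 in the control. For kiss1 the libraries at 0.01 and 1.0 mg/L had 33 and 40 counts, so the control stood apart. The oxytocin gene oxt had 649 counts at 0.1 mg/L against 1568 in the control (ratio 0.461, interval 0.420 to 0.505), with 2017 and 225 at 0.01 and 1.0 mg/L. The relaxin family gene rln3a was higher, with 65 counts at 0.1 mg/L against 26 in the control. Of 43 monoamine genes 1 was higher and 1 lower (2.33% each, near the 2.43% and 2.95% of all genes). Tyrosine hydroxylase th, which limits catecholamine synthesis, had 99 counts at 0.1 mg/L against 51 in the control (2.16-fold, interval 1.53 to 3.09). The adrenergic receptor gene adra2da had 35 at 0.1 mg/L against 89 in the control. Of 17 cholinergic genes 2 receptor genes were lower (11.8%, against 2.95% of all genes). They were chrm3a with 6 counts at 0.1 mg/L against 29 in the control and chrnb3a with 103 at 0.1 mg/L against 242 in the control. For chrnb3a the libraries at 0.01 and 1.0 mg/L had 85 and 89 counts, so the control stood apart.

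For photoreceptor and pineal genes, which bear on the study's title, 23 of 69 phototransduction genes were measured, 2 were higher and 6 lower. These shares were 8.70% and 26.1%, against 2.43% and 2.95% of all genes, and lower calls ranged from 2 to 7 among the settings tried. Most of the lower ones were low in both libraries. The guanylate cyclase gene gucy2d had 10 counts at 0.1 mg/L against 71 in the control (ratio 0.157, interval 0.0721 to 0.306), the ion exchanger gene slc24a1 had 7 at 0.1 mg/L against 30 in the control, and the rod transducin gene gngt1 had 2 at 0.1 mg/L against 14 in the control (ratio 0.159, interval 0.01755 to 0.693). The cone arrestin gene arr3a and the exchanger gene slc24a2, named after their values were seen, had 5 and 6 counts at 0.1 mg/L against 19 and 21 in the control. At 1.0 mg/L gngt1 had 185 counts, arr3a 41 and slc24a2 40, so 0.1 mg/L lay on the other side of the control from 1.0 mg/L for these 3. Higher were the opsin kinase gene grk1b, with 45 counts at 0.1 mg/L against 5 in the control (10.02-fold, interval 3.99 to 32.35) and 3 and 8 at the other doses, and rp1l1a, named after its values were seen, with 386 at 0.1 mg/L against 173 in the control. The 46 listed genes under the filter included the listed visual opsins of rods and cones, with at most 5 counts in any library, among them rho at 0 counts at 0.1 mg/L against 5 in the control.

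The pineal opsin gene exorh, which 3 of the lists hold, had 63 counts at 0.1 mg/L against 181 in the control (ratio 0.388, interval 0.286 to 0.519), with 115 and 380 at 0.01 and 1.0 mg/L. Of 10 measured pineal and melatonin genes, the 0.1 mg/L library was the lowest of the 4 for 6, and exorh and gngt1 were called. The list summed to 37.8 CPM at 0.1 mg/L and 53.1 CPM in the control, with 46.2 and 117 at 0.01 and 1.0 mg/L. How much pineal tissue each library held was not measured otherwise, and its part in these values was not tested. Of 9 measured non-visual opsins, opn6a was also lower, with 4 counts at 0.1 mg/L against 21 in the control. With exorh, 22.2% of that list was lower, against 2.95% of all genes. Among 37 retinoid genes, the carrier gene rbp3 had 11 counts at 0.1 mg/L against 102 in the control (ratio 0.120, interval 0.0581 to 0.224). The retinyl ester gene lratb.1 had 43 at 0.1 mg/L against 106 in the control, and rbp2a had 0 at 0.1 mg/L against 10 in the control (ratio interval 0 to 0.497). The retinol uptake receptor gene stra6 was higher, with 19 counts at 0.1 mg/L against 6 in the control, and 6 and 32 at 0.01 and 1.0 mg/L.

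Some genes of brain regions also differed, and the sources used here do not say how the brains were cut. Of 26 telencephalon transcription factors, 3 were lower (11.5%, against 2.95% of all genes). The median was -0.23, while the list summed to 3140 CPM at 0.1 mg/L and 2566 CPM in the control. The gene foxg1a, which patterns the forebrain, had 40 counts at 0.1 mg/L against 115 in the control (ratio 0.387, interval 0.263 to 0.559). Also lower were lhx8a, with 4 at 0.1 mg/L against 33 in the control, and gsx2, with 7 at 0.1 mg/L against 28 in the control. All 6 measured hox genes, markers of hindbrain and spinal cord, lay above the control, with a median of 0.58. Only hoxb5a was called (16.7% of the list, against 2.43% of all genes called higher), with 57 counts at 0.1 mg/L against 22 in the control (2.89-fold, interval 1.74 to 4.96). Of 25 cerebellar genes 1 was called, rorb, and the granule neuron gene zic1 stood at a log2 ratio of 0.43. The part of dissection in the neuronal and peptide gene values was not tested. Astroglia and radial glia markers lay below the control in 31 of 39, with a median of -0.28. Called lower was 1 (2.56%, near the 2.95% of all genes), a copy of the Notch target gene her4.2. It had 35 counts at 0.1 mg/L against 87 in the control. The astroglia list summed to 5786 CPM at 0.1 mg/L and 6905 CPM in the control.

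A collagen-modifying gene had the highest ratio among genes of at least 5 CPM with an informative symbol. This was p3h3 (ENSDARG00000057879) on chromosome 16 from 11992498 to 12006828, of the prolyl hydroxylases, with 399 counts at 0.1 mg/L against 22 in the control (20.2-fold, interval 13.1 to 32.6), and 387 and 217 at 0.01 and 1.0 mg/L. For p3h3 the control was the library that stood apart. The lysyl oxidase family gene loxl3b had 192 counts at 0.1 mg/L against 76 in the control (2.81-fold, interval 2.15 to 3.72), with 61 and 72 at the other doses, so there 0.1 mg/L stood apart. The other 14 measured hydroxylase and oxidase genes were not called, so 12.5% of the list was higher, against 2.43% of all genes. Of 60 collagen and matrix genes 1 was higher and 2 lower (1.67% and 3.33%, near the 2.43% and 2.95% of all genes). The gene col12a1b was higher, with 127 counts at 0.1 mg/L against 36 in the control. The laminin gene lama5 was lower, with 154 at 0.1 mg/L against 467 in the control (ratio 0.367, interval 0.304 to 0.441), and so was col11a1b, with 5 at 0.1 mg/L against 48 in the control.

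Among 42 amino acid transporter genes 4 were higher and 1 lower (9.52% and 2.38%, against 2.43% and 2.95% of all genes). The cationic amino acid transporter gene slc7a2 had 105 counts at 0.1 mg/L against 11 in the control (10.6-fold, interval 5.70 to 21.9), the glycine transporter gene slc6a5 of inhibitory neurons had 213 at 0.1 mg/L against 110 in the control, slc7a10a had 324 at 0.1 mg/L against 159 in the control, and the mitochondrial ornithine carrier gene slc25a15b had 58 at 0.1 mg/L against 29 in the control. The vesicular transporter gene slc6a17, named after its values were seen, was lower, with 102 at 0.1 mg/L against 236 in the control. Related to ornithine by its target enzyme, the antizyme gene oaz1b had the highest ratio among genes above 100 CPM with an informative symbol. It had 2675 counts at 0.1 mg/L against 1180 in the control (2.52-fold, interval 2.36 to 2.71), with 1284 and 925 at 0.01 and 1.0 mg/L, so 0.1 mg/L alone stood apart. Also in this class were tnfaip2a, a gene named for induction by tumour necrosis factor, with 2189 at 0.1 mg/L against 998 in the control, wscd1b with 2531 at 0.1 mg/L against 1253 in the control, and olfm2b with 2080 at 0.1 mg/L against 1028 in the control. On the lower side was bahcc1b, with 608 counts at 0.1 mg/L against 1677 in the control (ratio 0.404, interval 0.367 to 0.443), and 421 and 1915 at 0.01 and 1.0 mg/L.

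Other genes high at 0.1 mg/L had no list. The membrane-curving protein gene bin2a had 245 counts at 0.1 mg/L against 56 in the control (4.87-fold, interval 3.63 to 6.63), with 5 and 13 at 0.01 and 1.0 mg/L. The other doses were therefore below the control, on the far side from 0.1 mg/L. The phospholipase gene pla2g3 had 132 counts at 0.1 mg/L against 30 in the control, the mitochondrial carrier gene slc25a23a 657 at 0.1 mg/L against 213 in the control, and the ADP-ribosyltransferase family gene parp12a 87 at 0.1 mg/L against 30 in the control. Genes with very few counts in the control, named after their values were seen, included the spindle checkpoint adaptor gene spdl1, with 128 counts at 0.1 mg/L against 4 in the control (35.6-fold, interval 13.6 to 133), and the galectin gene lgals17, with 100 at 0.1 mg/L against 2 in the control (55.7-fold, interval 15.01 to 466). Both had fewer at the other doses, with 12 and 36 for spdl1 and 3 and 9 for lgals17.

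Motile cilia genes of the ependyma split, with 5 higher and 3 lower of 55 (9.09% and 5.45%, against 2.43% and 2.95% of all genes). The dynein gene dnah12 had 48 counts at 0.1 mg/L against 16 in the control and dnah3 19 at 0.1 mg/L against 69 in the control, the assembly factor gene dnaaf4 had 7 at 0.1 mg/L against 31 in the control, and the radial spoke gene rsph4a had 15 at 0.1 mg/L against 53 in the control. In the endothelium list 2 of 36 were higher (5.56%, against 2.43% of all genes) and none was lower. The higher ones were the scavenger receptor gene stab1 with 46 counts at 0.1 mg/L against 14 in the control and the tight junction gene cldn5b with 21 at 0.1 mg/L against 5 in the control. Of 23 skin and epithelium genes 1 was higher and 1 lower (4.35% each, against 2.43% and 2.95% of all genes). Higher was tgm1l2 with 76 counts at 0.1 mg/L against 30 in the control. Lower was the adhesion gene epcam with 3 at 0.1 mg/L against 125 in the control (ratio 0.0267, interval 0.00544 to 0.0799). With 0 counts of epcam at both other doses, the control stood apart. Blood cell markers had 0 of 19 called and a median of -0.17. Of 31 muscle genes ckmb alone was called (3.23%, near the 2.43% of all genes called higher), with 63 counts at 0.1 mg/L against 30 in the control.

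Cell cycle genes were lower in 12 of 54 (22.2%, against 2.95% of all genes), with 0 higher and a median of -0.40. At a mean of at least 5 CPM 1 was lower and the median was -0.21, and with a pseudocount of 2 CPM 7 were lower. The oocyte list also holds 3 of the 12, ccnb1, ccnb2 and birc5b. The control was the highest of the 4 libraries for all 12. Mitotic cyclin ccnb1 had 22 counts at 0.1 mg/L against 175 in the control (ratio 0.140, interval 0.0855 to 0.219), and ccnb2 had 6 at 0.1 mg/L against 85 in the control. The licensing inhibitor gene gmnn had 10 at 0.1 mg/L against 110 in the control, and the survivin gene birc5b 0 at 0.1 mg/L against 56 in the control (ratio interval 0 to 0.0758). Oocytes hold such transcripts too. Of the 25 measured genes of the oocyte list 14 were lower (56%, against 2.95% of all genes). These 14 include ccnb1, ccnb2 and birc5b, so the oocyte and cell cycle counts share genes. Also among the 14 was the linker histone gene h1m, with 0 counts at 0.1 mg/L against 289 in the control (at least 86.5-fold lower). Another was the translation regulator gene zar1, with 1 at 0.1 mg/L against 136 in the control (ratio interval 0.000206 to 0.0464). Of the egg coat genes measured 18 of 20 were lower, against 2.95% of all genes. Members such as zp2.6 passed the level filter only through the control. The part of egg RNA in the cell cycle values was not tested.

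Housekeeping groups lay close to the control. Of 95 ribosomal protein genes 0 were called, with 84 above the control and a median of 0.21. The 0.1 mg/L library was the highest of the 4 for 79 of them. Mitochondrially encoded protein genes had a median of -0.14, with 11 of 13 below the control and the 0.1 mg/L library lowest for 10, and nuclear oxidative phosphorylation genes 0.09, with 0 of 84 called. In glycolysis 1 of 37 was lower, gapdh with 114 counts at 0.1 mg/L against 337 in the control (ratio 0.377, interval 0.302 to 0.467). That share was near the 2.95% of all genes called lower. At 0.01 and 1.0 mg/L gapdh had 126 and 101 counts, so the control stood apart. The gapdh gene was a small part of its list, with 11.31 CPM at 0.1 mg/L and 30.02 CPM in the control. The glycolysis list summed to 8010 CPM at 0.1 mg/L and 8212 CPM in the control. Lists of cholesterol synthesis, apoptosis, thyroid hormone handling and pituitary hormones had 0 called of 39, 31, 10 and 5 measured.

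**Figure D4:**
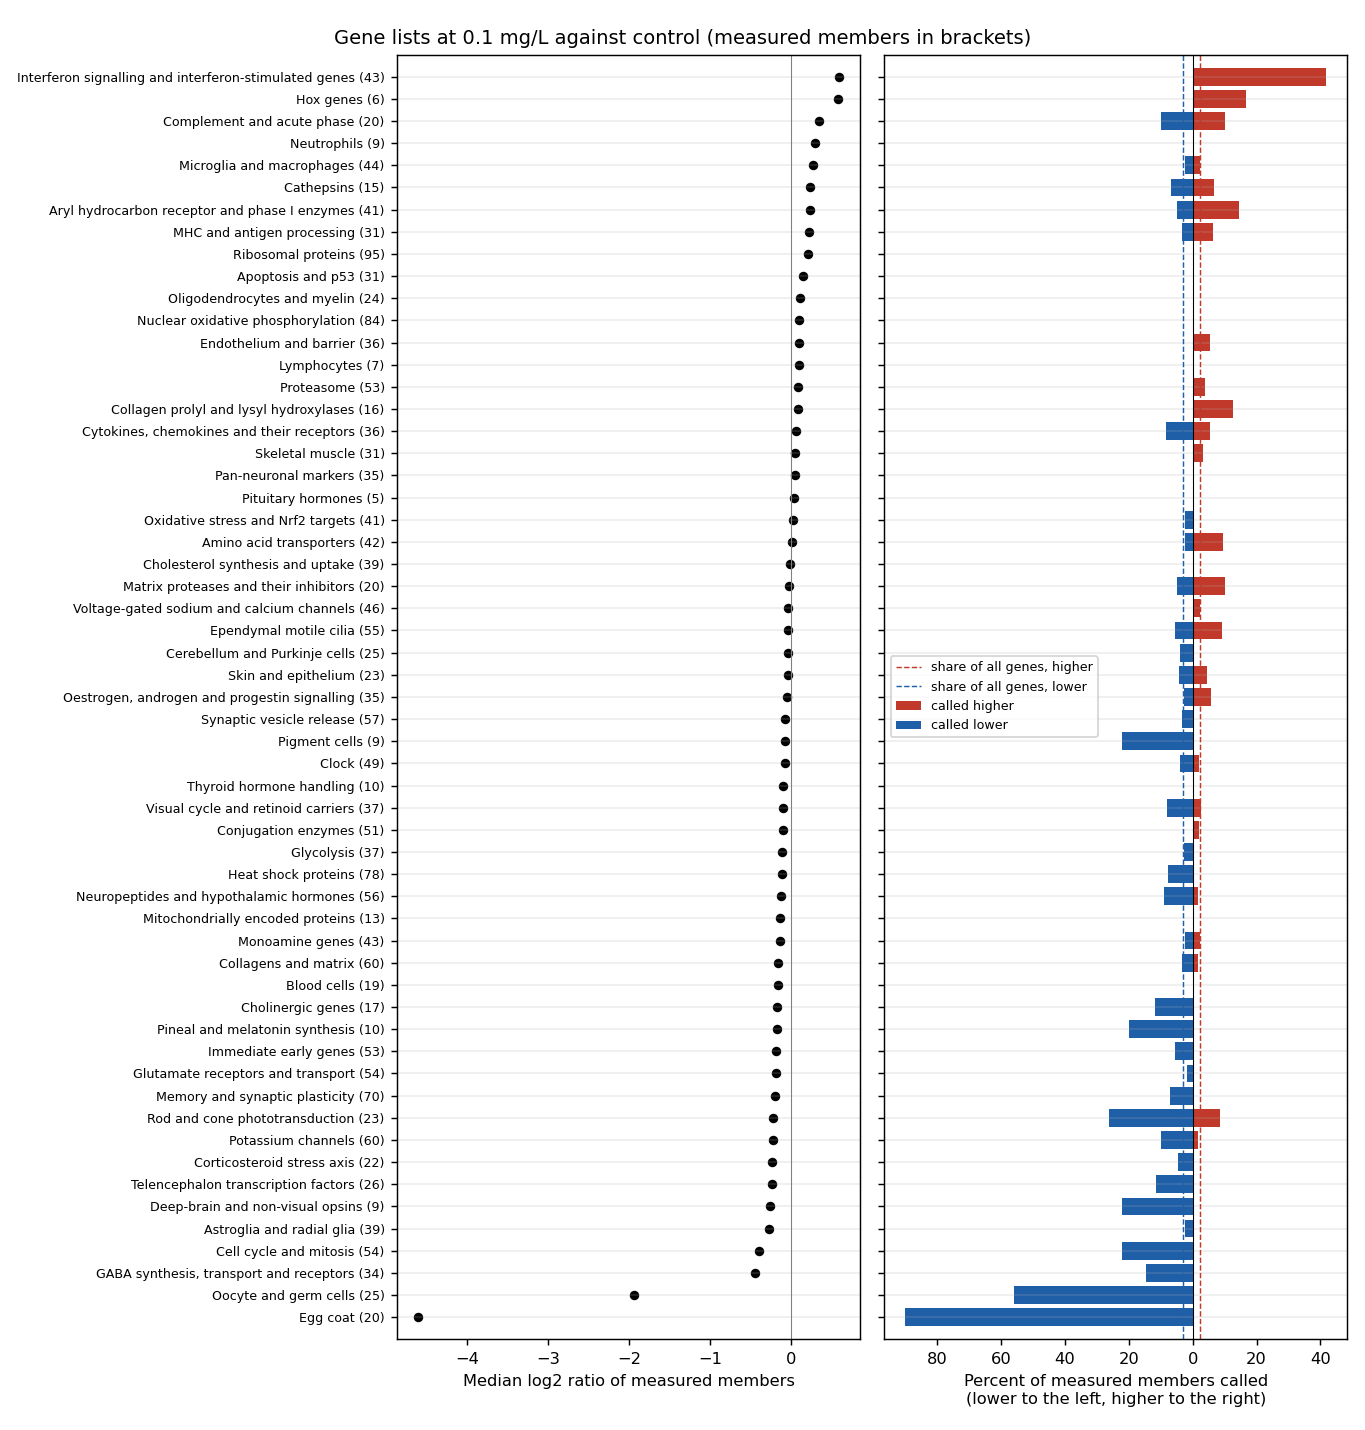
Median log2 ratio of measured members (left) and percent of members called higher (red, to the right) or lower (blue, to the left) at 0.1 mg/L against control for each of 57 lists, with dashed lines at 2.43% and 2.95%, the shares over all genes. The interferon list has the highest median, 0.59, and the egg coat list the lowest.

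Calls were unevenly spread over the genome (GRCz11, positions as deposited). Chromosome 4 had the highest share, 9.58% of 741 genes, against 5.37% of all genes, with 49 higher and 22 lower. Beyond 28 Mb, on the long arm, 39 of 294 genes were higher (13.3%) and 18 lower (6.12%), while 10 and 4 of 447 were so up to 28 Mb. From 70 to 72 Mb there, 9 of 26 genes were higher and 0 lower, and the 9 summed to 271 counts at 0.1 mg/L against 88 in the control, with 98 and 207 at 0.01 and 1.0 mg/L. Chromosome 22 followed, with 15 higher and 36 lower of 565 genes. Of the lower ones 18 lay between 25140904 and 25756668, where they summed to 13 counts at 0.1 mg/L against 2865 in the control, with 14 and 1 at 0.01 and 1.0 mg/L. A like stretch on chromosome 20, 54013212 to 54316972, held 11 lower genes with 33 counts at 0.1 mg/L against 4271 in the control, of which 5 are on the egg coat or oocyte list, such as zp2.1, zp2.5 and zp2.6. Smaller stretches held 5 lower genes each, on chromosome 3 (4 counts at 0.1 mg/L against 507 in the control) and chromosome 9 (2 at 0.1 mg/L against 589 in the control). In all 4 stretches the other doses were low as well, with sums of 26 at most.

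**Figure D5:**
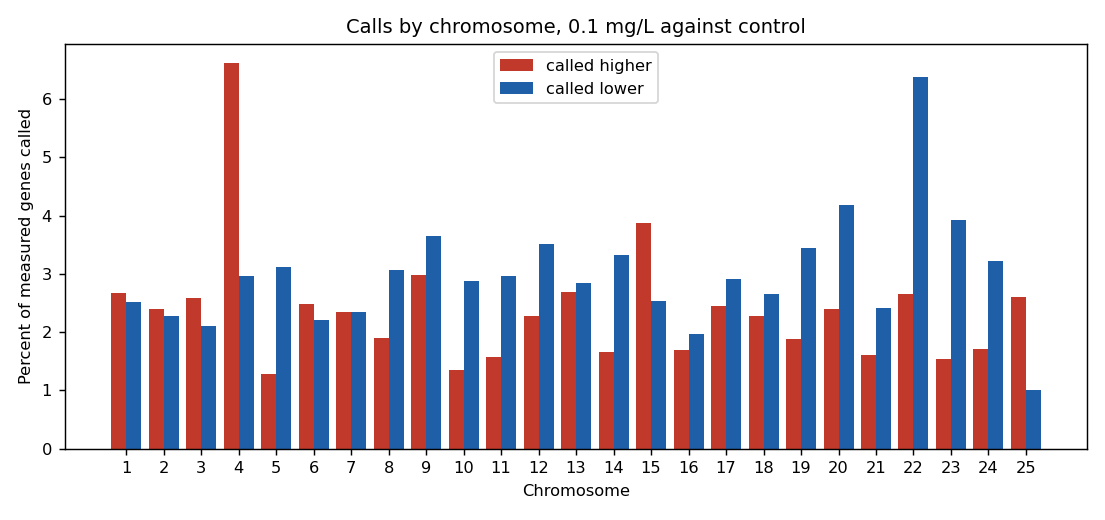
Percent of measured genes called higher (red) and lower (blue) at 0.1 mg/L against control on each of chromosomes 1 to 25. Chromosome 4 stands out on the higher side and chromosome 22 on the lower side.

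The authors' deposited table marks 1393 genes as changed at 0.1 mg/L, 575 up and 818 down, and 325 genes in it have a q-value under 0.05, with 103 up and 222 down. Of its marked genes 436 up and 513 down passed the level filter, and 384 and 463 of those were also called here. For all 888 genes called here, the authors' deposited table gives a fold change of the same sign. Both sets come from the same 2 libraries, so neither is a repeat of the other.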

How the data were processed

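Poly(A) RNA of 4 brain libraries, 1 per group, was read as 151 bp paired ends with a stranded kit, per the labels' protocols. The submitters' processing notes name cutadapt 2.8, STAR 2.7.1a and RSEM 1.3.1 and the build GRCz11. The authors deposited 1 table with an estimated count (expected count), an RPKM and a TPM value per gene and library, per the file headers. Every count in it is whole, so it was read as a rounded RSEM estimate. Also deposited are a p-value, a q-value and a log2 fold change of each dose over the control, whose test the sources used here do not name. A gene carries the authors' mark where that p-value is under 0.05 and the fold change is at least 1 in size on the log2 scale.

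Counts were scaled with TMM factors over the 4 libraries (edgeR 4.0.16, R 4.3.3), which were 1.02 at 0.1 mg/L and 1.01 in the control. CPM values were computed here. Intervals are Clopper-Pearson, given the total of a gene's counts in the pair of libraries. For a fold, a library at 0 was set to a floor of 3 counts, which leaves out counting error in the other library. PCR reads without molecular identifiers are not independent molecules, so intervals and floors cover counting error only.

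Named genes were, among called genes with at least 5 CPM and an informative symbol, the 15 highest and 15 lowest; for lists with a call or on light sensing, clock or memory, the 4 members of largest size; and the 5 highest and 5 lowest above 100 CPM. The comparison and the 57 gene lists were chosen with earlier results of these data known. Promoter and protein sequences were not used here.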

Additional observations from a re-analysis of the deposited data

How the results depend on the processing

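No paired analysis was possible because each group holds 1 library. A mean of at least 5 CPM left 137 genes higher and 108 lower (55.9% of calls higher, where the reported setting gave 45.2%), no filter beyond 1 count gave 613 and 810, and a pseudocount of 2 CPM gave 142 and 221. The other 7 settings (DESeq2 size factors, library totals, a pseudocount of 0.1 CPM, a thinned control, leaving out mitochondrially encoded genes or the egg coat and oocyte lists, and the deposited TPM) gave 394 to 524 higher and 407 to 646 lower. Calls on the deposited TPM used the size rule without an interval. Of 193 named genes 129 were called, and direction was followed for these only. None of the 129 changed direction under the settings that kept it. Most settings could not have changed it: a filter or a pseudocount leaves direction as it is. Other scaling moved the ratios little beside the size of at least 1 needed for a call. The count is therefore no measure of how firm the directions are. The call was lost under at least 1 setting by 56, of which a pseudocount of 2 CPM took 52. Genes that a setting dropped are not in that count: 104 of the named genes stayed at a mean of at least 5 CPM, and 175 without the egg coat and oocyte lists. Interferon members called higher ranged from 9 to 21, and lower calls from 1 to 6 for GABA genes and from 0 to 6 for memory genes. The interferon median ranged from 0.37 to 0.64, that of GABA genes from -0.46 to -0.35 and that of memory genes from -0.21 to -0.13. Medians of 12 lists changed sign, among them ependymal cilia, collagens and oestrogen signalling. With 1 library a side, the variation between fish is unmeasured. Intervals widen among genes of a few CPM, where most calls lie.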

Other observations

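Genes that do not code for protein were called more often on the higher side. Of 517 measured, 54 were higher (10.4%) and 22 lower (4.26%), against 347 and 465 of 16005 protein coding genes (2.17% and 2.91%). Among 232 long intergenic RNA genes 19 were higher (8.19%, against 2.43% of all genes) and 6 lower (2.59%, near the 2.95% of all genes). The abundant CR753876.1 of this class, on chromosome 19, had 1268 counts at 0.1 mg/L against 555 in the control (2.54-fold, interval 2.30 to 2.82), with 1634 at 0.01 mg/L and 1320 at 1.0 mg/L, so the control stood apart. BX469930.1 on chromosome 1 had 676 counts at 0.1 mg/L against 154 in the control (4.89-fold, interval 4.097 to 5.86), with 239 and 397 at the other doses. These genes, like those below, were named after their values were seen.

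Of 9 measured small nuclear RNA genes 3 were higher and 2 lower (33.3% and 22.2%, against 2.43% and 2.95% of all genes). FP102120.2 and FP102120.3 on chromosome 9 each had 0 counts at 0.1 mg/L against 87 in the control, with 124 at 0.01 mg/L and 0 at 1.0 mg/L, and CU695141.1 on chromosome 8 had 378 counts at 0.1 mg/L against 87 in the control. FP102120.2, FP102120.3 and CU695141.1 have the same count in the control, and copies of such genes can share reads, so their values are uncertain.

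The highest ratio above 5 CPM belonged to CU984600.2, a protein coding gene on chromosome 9 with no informative symbol. It had 1337 counts at 0.1 mg/L against 54 in the control (27.6-fold, interval 21.0 to 36.9), with 86 at 0.01 mg/L and 99 at 1.0 mg/L.

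In all, 101 genes had at most 5 counts at 0.1 mg/L and at least 50 in the control, and 4 genes the reverse. Of the 101, 21 are on the egg coat or oocyte lists, and 97 had at most 10 counts at both other doses, which share the control. The 21 are listed genes only, and genes off the lists had the same pattern. The 18 lower genes of chromosome 22 from 24 to 26 Mb, 0 of them listed, summed to 13 counts at 0.1 mg/L against 2865 in the control. Whether the unlisted genes come from the egg was not tested. The reverse 4 were lgals17, spdl1, vtg1 and a gene of chromosome 4 with a clone-based name and 65 counts at 0.1 mg/L against 0 in the control. With the control set to 3 counts, this clone-named gene was 24.1-fold higher.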
